A study of Mus musculus with 367 samples.

Results

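Collagen-rich matrix fibroblasts of large mouse skin wounds were compared between post-wounding day 15 and post-wounding day 21. They were chosen cell by cell from their own measured values, as cells with at least 1000 FPKM of Col1a1, less than 100 FPKM of Rgs5 and less than 50 FPKM of Tyrobp, with at most 15% of the summed FPKM on mitochondrial genes and at least 2000 genes above 0. FPKM divide the fragments of a gene by the length of its transcripts and by the depth of the cell. Of 208 cells captured at the 2 days, 126 met these limits, 72 at day 15 and 54 at day 21, out of 367 cells in the whole series. Day 15 capture 1 gave 50 matrix cells of 84, day 15 capture 2 gave 22 of 33, day 21 capture 1 gave 18 of 49 and day 21 capture 2 gave 36 of 42.

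All cells came from Sm22-Cre;tdTomato mice of mixed background, given by the labels as 3 to 8 weeks old, with excisional dorsal wounds of 1.5 cm by 1.5 cm. In these mice Cre recombinase is driven by the Tagln promoter (SM22 is another name for the transgelin protein), and tdTomato then stays on in any cell in which that promoter has been active and in its progeny. Viable cells with high tdTomato were sorted from 2 to 3 pooled mice per time point, captured singly on a C1 microfluidic chip and read as full-length cDNA. Both days carry the same genotype and differ in the time after wounding only, as far as the labels say. Each deposited capture was taken as 1 replicate, so n = 2 per day. No source used here states whether the captures of a day held different mice, so the p-values measure only the spread between captures, which may be technical.

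Fibroblasts of a healing wound lay down collagens, proteoglycans and matricellular glycoproteins, and remodel them with proteases and cross-linking enzymes. Part of them take on contractile filaments as myofibroblasts, and their gene expression shifts as granulation tissue turns into scar. In large mouse wounds of this kind hair follicles can form again in the wound centre by about the later of these 2 days. New fat cells follow in the week after it.

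The values of the rule itself are given as a description. Mean Col1a1 was 9427 and 13523 FPKM in the day 15 captures and 12944 and 6886 FPKM in the day 21 captures. Its level in day 21 capture 2 was the lowest of the 4, and the days overlapped. Mean Rgs5, a pericyte gene, lay between 0.0427 and 7.78 FPKM, and mean Tyrobp, a myeloid adaptor, between 0 and 0.504 FPKM. The nearest cells inside and outside each limit lay at 1179.61 and 611.92 FPKM for Col1a1, 60.49 and 115.04 FPKM for Rgs5, 7.3 and 153.07 FPKM for Tyrobp, 14.34% and 15.77% for the mitochondrial share, and 2273 and 1620 for the number of genes. Lum and Dcn, markers that the rule did not use, were at 10 FPKM or more in every cell of the 4 captures, except that Dcn reached it in 98% of the cells of day 15 capture 1. All 126 cells had at least 3 of the 10 matrix fibroblast markers at 10 FPKM, of which Col1a1 was fixed by the rule.

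The files give no fragment counts. Estimated from the steps between low values, the median depth was 975787 and 977629 fragments per cell at day 15 and 2213130 and 2225220 at day 21, so that depth and day cannot be told apart between these captures. Cells of 500000 to 2000000 estimated fragments, 45, 20, 6 and 11 in the captures in order, are called cells of a shared depth below. They share this window but are not matched for depth within it. The deepest cell of day 15 capture 2 had 1426070 fragments, and the shallowest of day 21 capture 1 had 1718150. Fits below with depth as a covariate use the median depth of each capture. It was nearly equal within each of these 2 days, so the fitted slope rests mostly on the day 12 captures. Their medians were 1972490, 1180620 and 1254700 fragments. The median number of genes above 0 was 5464.5 and 4857 at day 15 and 5906 and 5434.5 at day 21. In day 21 capture 2, 2 cells fell below the study's own minimum of estimated fragments. Cells with at least 3 of 11 mural markers at 10 FPKM numbered 1, 0, 0 and 0 over the captures in order, and with at least 3 of 15 myeloid markers 0, 0, 1 and 0. These lists hold Rgs5 and Tyrobp, which the rule limited. With at least 3 of 8 Schwann cell markers the cells numbered 2, 0, 1 and 0, and 1 cell of day 15 capture 1 reached a sum of 2512 FPKM. The sum of skeletal muscle markers reached 1082 FPKM in a cell of day 21 capture 1. The sum of myeloid markers reached 1622 FPKM in a cell of day 15 capture 1 and at most 477 FPKM in the other captures. Of the mural markers 2, 8, 5 and 4 were listed at 0 in every cell of the capture, and of the myeloid markers 4, 12, 8 and 10. Cells with at least 10 FPKM of Mki67, Top2a or Cdk1, called cycling cells below, numbered 14, 3, 1 and 0. Y-linked RNA at 10 FPKM was seen in 7 cells, all of day 15 capture 1, and Xist in 18, 9, 3 and 8 cells, so that the mix of male and female cells may differ between captures and its part in the results was not tested.

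**Figure D1:**
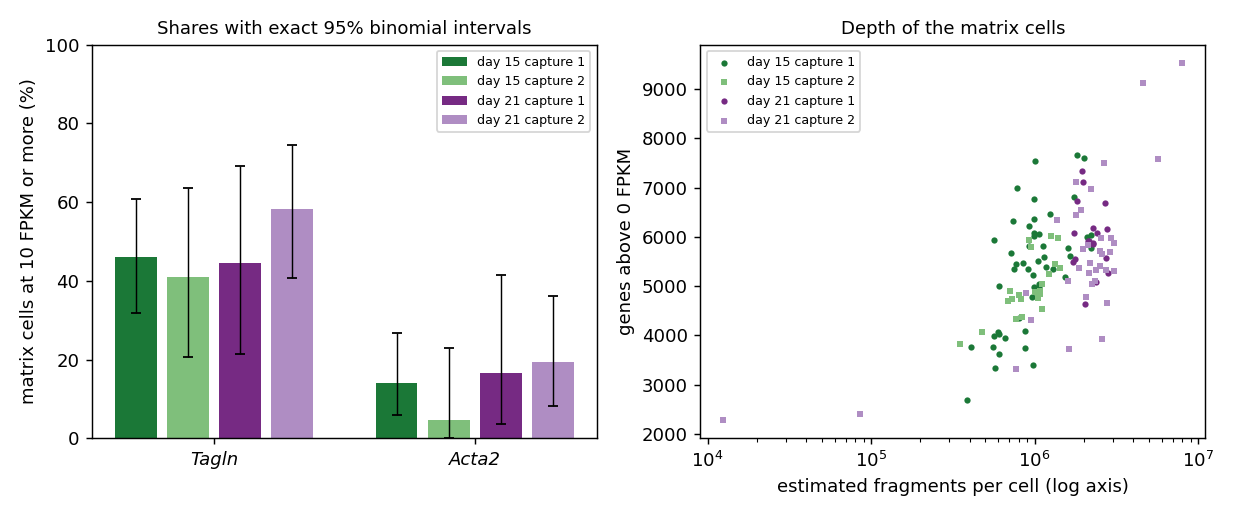
Left, the share of matrix cells with at least 10 FPKM of Tagln or Acta2 in each of the 4 captures, with exact 95% binomial intervals as error bars. Right, the genes above 0 FPKM against the estimated fragments of each matrix cell on a log axis. The Tagln shares lie between 40.9% and 58.3% with wide, overlapping intervals, and most day 21 cells lie to the right of the day 15 cells.

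Of 13080 genes whose mean over the 4 captures reached 1 FPKM, none differed between the days at an adjusted p below 0.05 (limma, Benjamini-Hochberg), which is 0% of those tested, and the smallest adjusted p was 0.262. At an unadjusted p below 0.05, 308 genes (2.35%) were higher at day 21 and 445 (3.4%) were lower. Both day 21 captures lay above both day 15 captures for 1764 genes (13.5%) and below them for 2199 (16.8%). The median difference of all genes was -0.06. Every difference here is day 21 minus day 15 on the scale of log2(mean FPKM of a capture + 1), with its standard error (SE). This scale understates the differences of low genes. On simulated data with normal spread the same test recovered 0% of genes that differed by 2 on that scale. It recovered 53.5% of those that differed by 4 and 83% of those that differed by 6. The changed genes were drawn from genes above a set level, so that low genes were not tried, nor were steps in between. In such genes a difference of 2 was thus not detectable at this number of captures. Leaving out day 15 capture 2 gave 189 genes past the threshold, of which 1 was higher, and leaving out day 21 capture 2 gave 74, all higher. In each of these a lone capture stands for its day and is assumed to vary like the others.

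**Figure D2:**
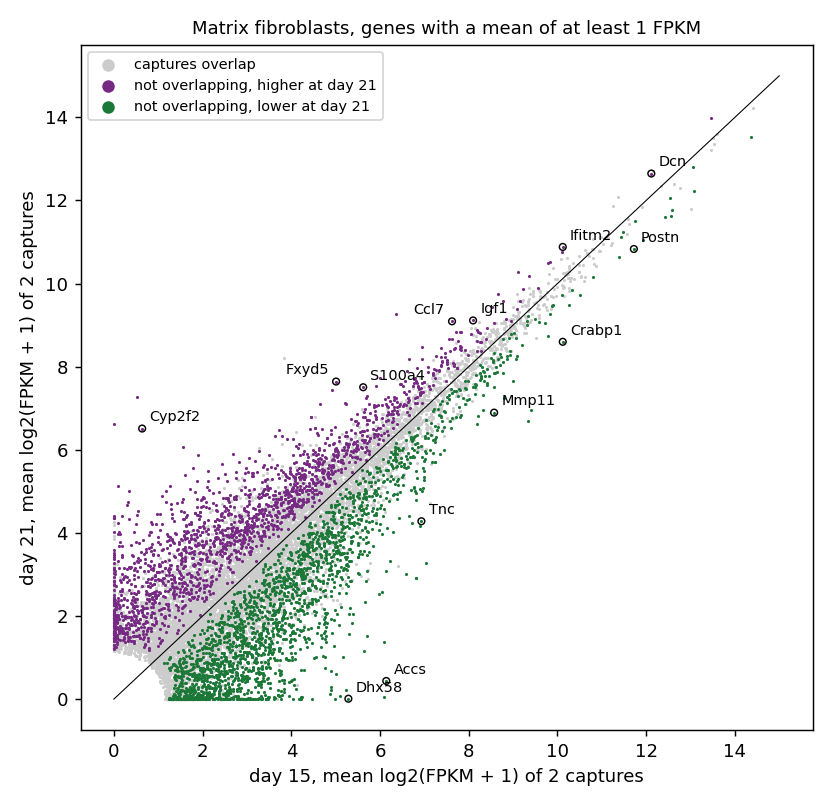
Each point is 1 of 13080 genes, placed by its mean log2(FPKM + 1) over the 2 day 15 captures (horizontal axis) and over the 2 day 21 captures (vertical axis), with genes whose captures do not overlap in colour. Tnc, Crabp1 and Mmp11 lie below the line of equal level and Igf1, S100a4 and Fxyd5 above it.

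Among the 15 named genes lower at day 21, Tnc had the highest mean level at day 15. It encodes tenascin-C, a matricellular glycoprotein of healing wounds, and lies at chr4:63959785-64047015 (GRCm38). Tnc was at 105 and 140.4 FPKM in the day 15 captures and at 15.3 and 22.2 FPKM in the day 21 captures. Both day 21 captures were far below both day 15 captures, and the share of cells with 10 FPKM or more was 56% and 54.5% against 38.9% and 19.4%. The difference was -2.65 (SE 0.49), with an unadjusted p of 0.000236 and an adjusted p of 0.488 (limma), and it was -4.75 in cells of a shared depth. Postn, which encodes the matricellular protein periostin (chr3:54361109-54391037), was at 3572 and 3196 FPKM against 2115 and 1569 FPKM, with nearly all cells positive, and its difference was -0.89 (SE 0.27, adjusted p = 0.718 in limma). Of 16 matricellular genes tested, 5 were lower without overlap (31.2%) and 3 higher (18.8%), against 16.8% and 13.5% of all genes. Their median difference was -0.17. Sparc, the most abundant of them, was at 24761 and 18994 FPKM against 13997 and 25861 FPKM, so that its captures overlapped. Thbs2, Fn1 and Fbln2 (thrombospondin 2, fibronectin and fibulin 2) were at 454 to 725, 472 to 607 and 475 to 734 FPKM at day 15 and at 520.3 to 538, 369.8 to 467 and 344 to 391 FPKM at day 21.

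**Figure D3:**
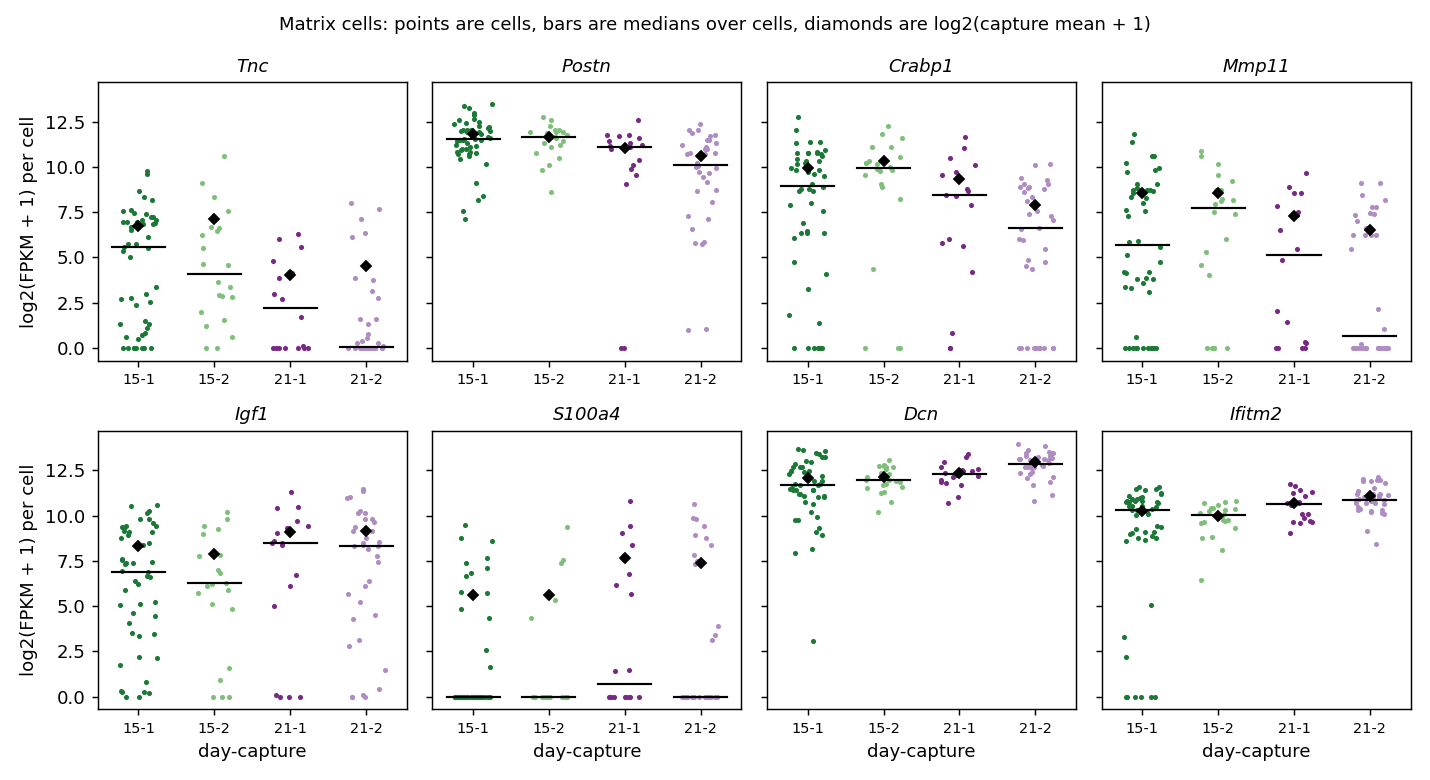
Each point is 1 matrix cell, by day and capture on the horizontal axis and log2(FPKM + 1) on the vertical axis, for 8 genes, with bars at the medians over cells and diamonds at the log2 of the capture mean plus 1. For Tnc, Crabp1 and Mmp11 the day 21 diamonds lie below the day 15 diamonds, while for Igf1, S100a4, Dcn and Ifitm2 they lie above.

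The 15 genes with the smallest p in each direction, among those without overlap and with 10 FPKM or more in the higher day, had adjusted p-values between 0.262 and 0.652. Most of the lower ones were carried by few cells. Dhx58, which encodes the RNA sensor LGP2, was at 26.1 and 55.2 FPKM at day 15, was listed at 0 in day 21 capture 1 and was at 0.0117 FPKM in capture 2. It reached 10 FPKM in 14% and 13.6% of day 15 cells and in none of the 54 day 21 cells. Uba7, the activating enzyme of the ubiquitin-like protein ISG15, was at 71.6 and 18.6 FPKM against 0 and 0.358 FPKM, in 24% and 22.7% of day 15 cells and in no day 21 cell. Igtp, an interferon-inducible GTPase, was at 21.2 and 38.8 FPKM against 0 and 0.477 FPKM, and 15.9% of its 31-base words also occur in Irgm2 or other genes. These 3 genes belong to the interferon response, and none of them was on the list of that name used below.

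Il1rl1, the receptor of the alarmin interleukin 33, was at 53.6 and 14.5 FPKM against 0.129 and 0.0467 FPKM, with 10% and 9.09% of day 15 cells and no day 21 cell at 10 FPKM. Its ligand Il33 had the opposite order, with 10.6 and 0.2 FPKM at day 15 and 28.3 and 117 FPKM at day 21, a difference of 3.98 (SE 1.29, unadjusted p = 0.0111 in limma). Mmp13, a collagenase, was at 9.02 and 116 FPKM against 0 and 0.0969 FPKM. The level of Mmp13 in day 15 capture 2 was over that of every other capture and came from 9.09% of 22 cells. Accs, Rfxank, Tcf19, Ucn2 and Hs3st1 were also lower without overlap, with differences from -5.71 for Accs to -3.58 for Hs3st1. Gm13470, Gm21962, Gm13827 and Gm6644 are predicted genes, and 93.1% of the words of Gm21962 and 96.6% of those of Gm6644 occur in other genes, so that their levels are uncertain.

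**Figure D4:**
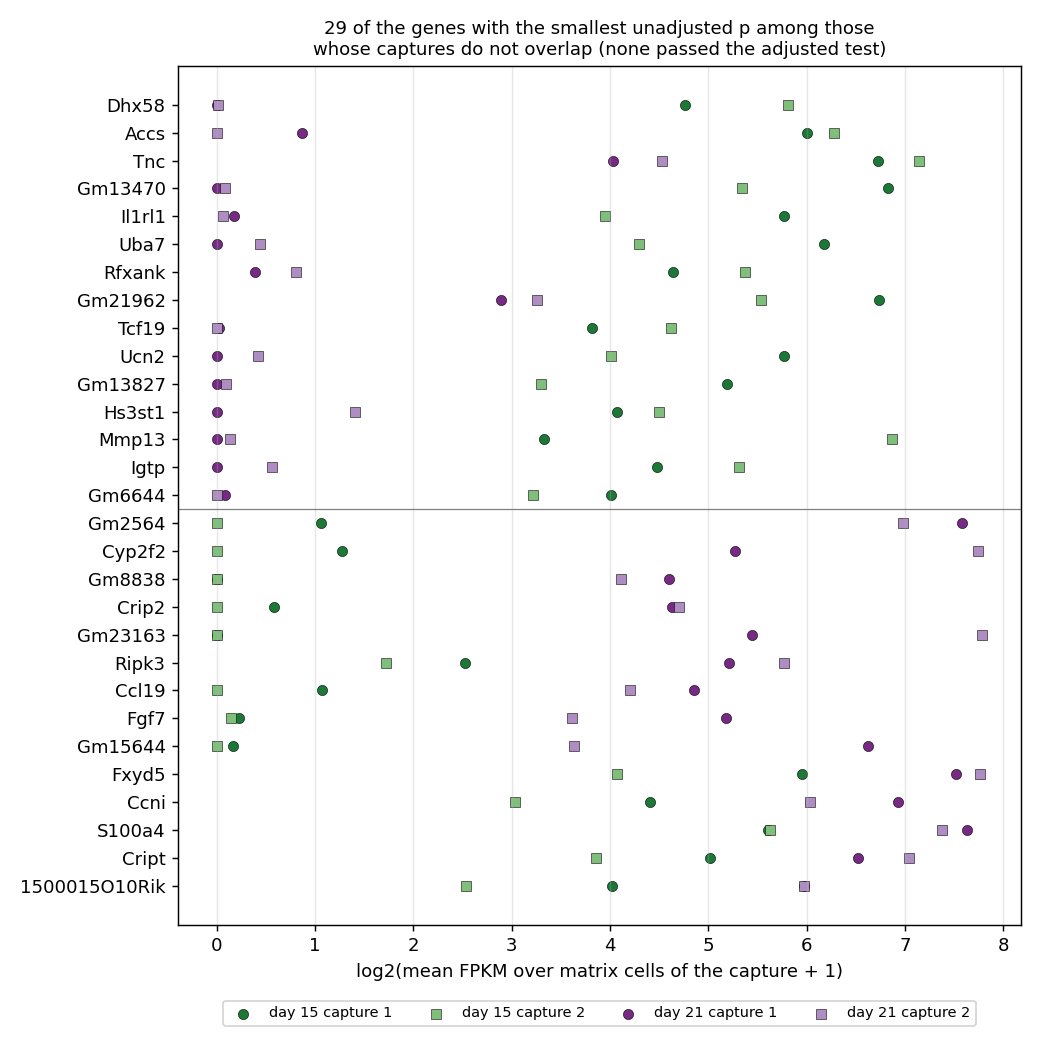
Mean level of 29 of the named genes in each of the 4 captures, as log2(mean FPKM + 1), with the 15 genes lower at day 21 above the line and 14 higher ones below it. Day 21 markers for Dhx58, Il1rl1 and Tcf19 lie near 0, while S100a4 and Fxyd5 were well above 0 at both days.

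Among the genes higher at day 21, S100a4 and Fxyd5 were detected at both days. S100a4, a calcium-binding protein long used as a fibroblast marker (chr3:90603771-90606045), was at 47.9 and 48.5 FPKM at day 15 and at 197 and 165 FPKM at day 21. The difference was 1.88 (SE 0.45, adjusted p = 0.652 in limma), and the share of positive cells was 24% and 22.7% against 38.9% and 30.6%. In cells of a shared depth, however, the difference of S100a4 was 0.028. Of its words 49.2% occur in the overlapping gene Gm42674, and no source used here says that the counting used strand. Fxyd5, a regulator of the sodium pump, was at 60.8 and 15.8 FPKM against 183 and 216 FPKM, with a difference of 2.63 (SE 0.60), and its share of positive cells was 18% and 22.7% against 38.9% and 44.4%. In cells of a shared depth it was 2.25.

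The gene with the smallest adjusted p, Gm2564 (0.262 in limma), shares 526 of its 677 words with Ccl19, which has 895. Ccl19 is a chemokine that guides dendritic cells and T cells, and reads cannot be assigned to one or the other over the shared stretch. Summed over both genes, the captures held 2.19 and 0 FPKM at day 15 and 218 and 143 FPKM at day 21. Cells with a sum of 10 FPKM or more numbered 1 of 50 and 0 of 22 at day 15 and 4 of 18 and 7 of 36 at day 21. The level at day 21 thus rested on a minority of cells in each capture, and in cells of a shared depth the differences were 1.88 for Gm2564 and 1.76 for Ccl19, against 6.75 and 3.99 in all cells.

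Cyp2f2, a cytochrome P450, was at 1.42 and 0 FPKM against 37.7 and 214 FPKM, in 2% and 0% against 16.7% and 30.6% of cells, and its difference was 4.95 in cells of a shared depth against 5.87 in all. Ripk3, a kinase of necroptosis, was at 4.74 and 2.31 FPKM against 35.9 and 53.6 FPKM, a difference of 3.37 (SE 0.74), but 0.48 in cells of a shared depth. Fgf7, the keratinocyte growth factor, was at 0.172 and 0.106 FPKM against 35.3 and 11.2 FPKM, from 5.56% and 13.9% of day 21 cells and no day 15 cell. In cells of a shared depth Fgf7 averaged below 1 FPKM over the captures and was not tested. Each of these 3 was low in both day 15 captures, with a minority of positive cells at day 21. Crip2, Ccni, Cript and 1500015O10Rik were higher without overlap as well, by 2.34 (Cript) to 4.37 (Crip2), and in cells of a shared depth the differences were 2.16 for Crip2, 0.91 for Ccni, 3.47 for Cript and -0.58 for 1500015O10Rik. Gm8838 and Gm23163 were listed at 0 in both day 15 captures. In cells of a shared depth Gm8838 averaged below 1 FPKM and was not tested. Gm23163 differed by 6.61 in all cells, by 3.22 in cells of a shared depth and by 0.48 with depth as a covariate. Without the cells below the study's own minimum of fragments its difference was 2.72, and 49.3% of its words occur in other genes. Gm15644 is the remaining predicted gene of this group.

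Small leucine-rich proteoglycans bind collagen fibrils and set their spacing. Of 11 tested, 4 were higher at day 21 without overlap (36.4%) and none was lower, against 13.5% and 16.8% of all genes. Their median difference was 0.53 against -0.06 for all genes. Dcn (decorin) was at 4366 and 4510.3 FPKM at day 15 and at 5282 and 7796 FPKM at day 21, a difference of 0.53 (SE 0.26). Bgn (biglycan) was at 1328 and 918 FPKM against 1451 and 2093 FPKM, a difference of 0.66 (SE 0.32). Day 21 capture 2 was the highest for both, and the gap between the other captures was small. Ecm2 was at 15 and 5.46 FPKM against 38.9 and 34.4 FPKM, a difference of 1.88 (SE 0.80, unadjusted p = 0.0387 in limma), and was positive in 50% of the cells of each day 21 capture against 26% and 9.09%. Prelp was at 67.6 and 8.28 FPKM against 146 and 129 FPKM, but with depth as a covariate its difference was -1.39. Lum did not follow, at 3198 and 2935 FPKM against 2952 and 3056 FPKM, and Aspn overlapped, with 800.3 and 1447 FPKM against 1676 and 1430.1 FPKM. The median of the list stayed above 0 with each capture left out, between 0.39 and 0.81.

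The fibrillar collagens, the tensile fibres of dermis, had a median difference of -0.40 over 8 genes. Of these, 4 were lower without overlap (50%) and none higher, against 16.8% and 13.5% of all genes. Col1a2 was at 9673 and 7549 FPKM against 7016 and 7397 FPKM, a difference of -0.25 (SE 0.29), so that day 15 capture 2 and day 21 capture 2 were nearly level. Col3a1 was at 14504 and 9406 FPKM against 10455 and 13017 FPKM and overlapped. Col5a1 and Col5a2, whose chains nucleate fibrils, had differences of -0.79 (SE 0.43) and -0.56 (SE 0.34). Col24a1 was the lowest in level, at 23.8 and 21.2 FPKM against 9.71 and 4.55 FPKM, with a difference of -1.60 (SE 0.68, unadjusted p = 0.0379 in limma). Among the other collagens, Col6a3 was at 967 and 955 FPKM against 778 and 654 FPKM, and Col12a1 at 660.0 and 638 FPKM against 631 and 561 FPKM. Col4a1, a basement membrane chain, had the opposite order, at 7.85 and 0.83 FPKM against 36.3 and 15.6 FPKM, a difference of 2.63 (SE 0.84, unadjusted p = 0.01 in limma). Of 13 basement membrane genes 3 were higher and 3 lower without overlap (23.1% each), against 13.5% and 16.8% of all genes.

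Enzymes that fold, modify and cross-link collagen were mixed. Of 23 tested, 8 were lower without overlap (34.8%) and 3 higher (13%), against 16.8% and 13.5% of all genes. The median of the list was -0.39. Serpinh1, the collagen chaperone HSP47, was at 231 and 209 FPKM against 112 and 152 FPKM, a difference of -0.75 (SE 0.42). P3h1, a prolyl 3-hydroxylase of collagen, was at 156 and 188 FPKM against 94.3 and 40.9 FPKM (difference -1.45, SE 0.56). Fkbp10 and Bmp1, a collagen chaperone and the procollagen C-proteinase, had differences of -0.99 (SE 0.55) and -0.76 (SE 0.44). The more abundant Ppib and Pcolce overlapped, at 1314 and 1856 FPKM against 879 and 1499 FPKM and at 899.6 and 657 FPKM against 701 and 1215 FPKM. In contrast Lox, the lysyl oxidase that cross-links collagen and elastin, was at 110.3 and 104 FPKM at day 15 and at 225 and 191 FPKM at day 21, a difference of 0.94 (SE 0.40, unadjusted p = 0.0387 in limma). About the same share of cells was positive in all 4 captures, between 88.9% and 92%. Of 17 elastic fibre genes 5 were higher without overlap (29.4%) and 1 lower (5.88%), against 13.5% and 16.8% of all genes. Mfap5, a microfibril protein, was at 371 and 444 FPKM against 645 and 1132 FPKM (difference 1.07, SE 0.47, unadjusted p = 0.0456 in limma), while Mfap2 overlapped, at 2625 and 1949 FPKM against 1800.1 and 2625 FPKM, and Fbn1 (fibrillin 1) differed by 0.67.

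Of 24 matrix proteases and their inhibitors 10 were lower at day 21 without overlap (41.7%) against 16.8% of all genes, and 1 was higher (4.17%) against 13.5%. Their median was -0.48, and their summed level overlapped, at 3083 and 2607 FPKM against 1942 and 3245 FPKM. Mmp11, a stromelysin of remodelling stroma (chr10:75923222-75936496), was at 381 and 379 FPKM against 154 and 90.2 FPKM. The day 15 captures were nearly equal and both day 21 captures lower, with a difference of -1.68 (SE 0.59, unadjusted p = 0.0171 in limma). Plat, the tissue plasminogen activator, was at 106 and 139 FPKM against 61 and 15.9 FPKM, a difference of -1.92 (SE 0.60, unadjusted p = 0.00912 in limma), and its share of positive cells was 54% and 90.9% against 44.4% and 22.2%. Adamts9 was at 65.5 and 17.1 FPKM against 10.2 and 6.44 FPKM (difference -1.93, SE 0.79). Adamts4, an aggrecanase, was at 28.4 and 36.2 FPKM against 11.9 and 9.69 FPKM (difference -1.49, SE 0.67), but 0.31 with depth as a covariate. Mmp14, the membrane-bound collagenase, and Timp1, an inhibitor, had smaller differences of -0.56 (SE 0.35) and -0.58 (SE 0.37). Mmp2, a gelatinase, was at 609 and 561 FPKM against 554 and 904 FPKM and overlapped, as did Mmp3, which was at 205, 213 and 198 FPKM in the first 3 captures and at 714 FPKM in day 21 capture 2. The median of the list was between -0.68 and -0.01 with each capture left out, and -0.01 is near the median of all genes.

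**Figure D5:**
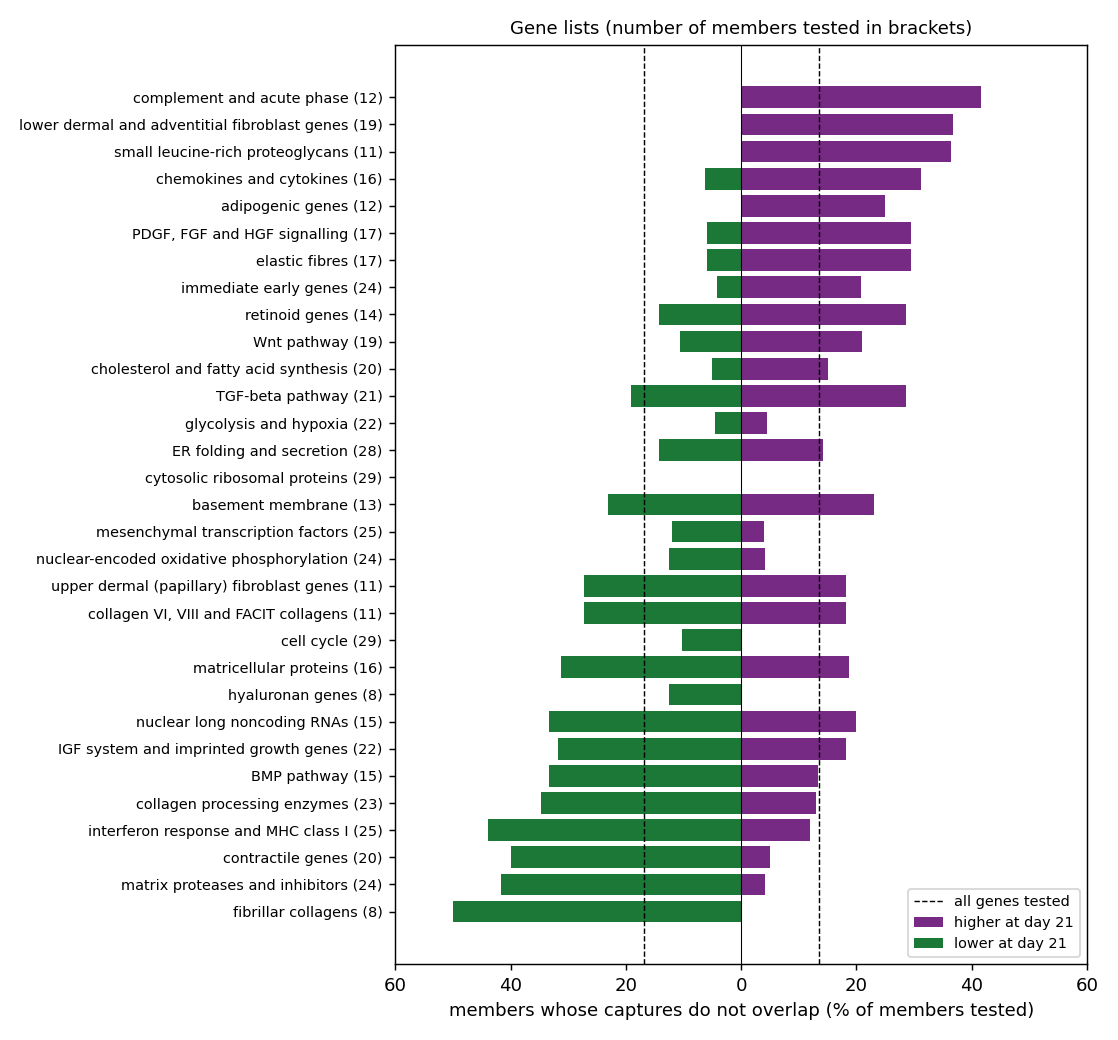
Bars give the percentage of the tested members of each gene list whose 2 day 21 captures lie above (right) or below (left) both day 15 captures, and dashed lines mark 13.5% and 16.8%, the same for all genes. The proteoglycan and complement lists have members only on the right, and the contractile, protease and interferon lists lie mostly on the left.

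Contractile genes build the actin and myosin filaments of myofibroblasts. Of 20 tested, 8 were lower without overlap (40%) and 1 higher (5%), against 16.8% and 13.5% of all genes. Their median difference was -0.47, between -0.62 and -0.21 with each capture left out. Their summed level was lowest in day 21 capture 1, at 2188, 2153, 1544 and 2199.5 FPKM in order. Smtn, which encodes the contractile protein smoothelin, was at 43.9 and 22.8 FPKM against 10.5 and 5.21 FPKM (difference -1.95, SE 0.70, unadjusted p = 0.0178 in limma). It was positive in 40% and 36.4% of day 15 cells and in 16.7% and 13.9% of day 21 cells. Myl9, a myosin light chain, was at 125 and 179 FPKM against 61.4 and 84.8 FPKM (difference -1.04, SE 0.48), and Tpm1 and Tpm4, tropomyosins, had differences of -0.67 (SE 0.45) and -0.48 (SE 0.41). Actg2, an actin of smooth muscle, was at 12.8 and 6.08 FPKM against 0.0889 and 0.0075 FPKM, but only 8% and 4.55% of day 15 cells had 10 FPKM. Tagln2 had the opposite order to these, at 93.8 and 93.6 FPKM against 144 and 280.0 FPKM, a difference of 1.09 (SE 0.53). Cald1 (caldesmon) overlapped, at 218 and 289.9 FPKM against 209.7 and 316 FPKM.

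Tagln and Acta2, the usual myofibroblast markers, did not follow the list. Tagln was at 196 and 162 FPKM against 85.6 and 241 FPKM, and Acta2 (smooth muscle actin) at 29.6 and 12.9 FPKM against 21.5 and 39.8 FPKM. For both genes the captures overlapped. Tagln reached 10 FPKM in 23 of 50, 9 of 22, 8 of 18 and 21 of 36 cells, or 46%, 40.9%, 44.4% and 58.3%. The difference of the day means was 7.93 percentage points (two-sided exact permutation test over captures, p = 0.667). Acta2 reached it in 7, 1, 3 and 7 cells, or 14%, 4.55%, 16.7% and 19.4%, a difference of 8.78 percentage points (exact p = 0.333). With 2 captures against 2 the smallest p this test can give is 0.333. The differences of both shares were also above 0 at limits of above 0 and 100 FPKM. In cells of a shared depth they were 18.03 points for Tagln and 12.05 points for Acta2 (exact p = 0.333 and 0.667), from 6 and 11 day 21 cells.

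The interferon response protects cells from viruses, and many of its genes carry the interferon-stimulated response element in the promoter. Of 25 interferon response and MHC class I genes, 11 were lower at day 21 without overlap (44%) against 16.8% of all genes. Higher without overlap were 3 (12%), against 13.5% of all genes. The median of the list was -0.76, between -0.96 and -0.47 with each capture left out. Its summed level overlapped, at 4774, 6235, 5218 and 5953 FPKM in order. Isg15, a ubiquitin-like protein, was at 9.85 and 26.8 FPKM against 1.76 and 8.17 FPKM, with 22% and 18.2% positive cells against 5.56% in each day 21 capture (difference -1.79, SE 0.89). Ifit1, which binds foreign RNA, was at 30.4 and 30.7 FPKM against 15.2 and 8.74 FPKM (difference -1.33, SE 0.74). Stat2 and Bst2, a transcription factor of the pathway and a tether of budding virus, had differences of -1.30 (SE 0.82) and -1.22 (SE 0.87). Irf1, another such factor, was at 124 and 113 FPKM against 2.29 and 97.5 FPKM, so that its difference of -2.73 (SE 1.23) came mostly from day 21 capture 1. Day 15 capture 2 was the highest of the 4 captures for 15 of the 25 genes (60%) against 22.2% of all genes. The most abundant members were apart from this. Ifitm2 was higher at day 21, at 1209 and 1021 FPKM against 1653 and 2149 FPKM (difference 0.76, SE 0.28, unadjusted p = 0.0201 in limma), and Ifitm3 and B2m, the light chain of MHC class I, overlapped, at 1287, 1841, 685 and 1683 FPKM and at 1137, 1833, 1819 and 856 FPKM over the captures in order. Ifi27 was at 147 and 227 FPKM against 307 and 267 FPKM (difference 0.65), but -0.07 in cells of a shared depth. Ifit3 and Tapbp, a loading factor of MHC class I, had differences of -1.08 (SE 0.97) and -0.83 (SE 0.47).

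In cells of a shared depth 25.5% of all genes were lower and 8.91% higher without overlap, so that the background itself moved. In these cells 9 of 25 interferon and MHC class I genes, 10 of 24 protease genes and 8 of 20 contractile genes were lower, and 1, 3 and 0 were higher. Of 11 proteoglycan genes 5 were higher and none lower. Of 8 fibrillar collagens 3 were lower and 1 higher, and of 16 matricellular genes 4 were lower and 2 higher. Several lists with more higher than lower members in all cells lost part of that excess. Chemokines and cytokines had 4 higher and 4 lower of 16, adipogenic genes 2 and 2 of 12, lower dermal and adventitial genes 5 and 2 of 19, and complement genes 3 and 1 of 12. Cell cycle genes had 20 of 29 lower, and BMP pathway genes 8 of 15. Differences of single genes were nearer 0 in these cells for Mmp11 (-0.96), Ccl7 (0.58), Ebf1 (0.44), Tagln2 (0.32) and Bst2 (-0.52).

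The promoters of Isg15, Ifit1 and Igtp are shown because all 3 genes were lower at day 21 and because they hold the core of that element. Each run covers 250 bases before and 50 bases after the start of the gene, 5′ to 3′ on the strand of the gene, from RefSeq on GRCm38.p6. Capitals mark GAAANNGAAA on either strand, with overlapping copies joined. The positions are chr4:156200769-156201068 on the minus strand for Isg15, chr19:34640639-34640938 on the plus strand for Ifit1 and chr11:58199306-58199605 on the plus strand for Igtp.
Isg15: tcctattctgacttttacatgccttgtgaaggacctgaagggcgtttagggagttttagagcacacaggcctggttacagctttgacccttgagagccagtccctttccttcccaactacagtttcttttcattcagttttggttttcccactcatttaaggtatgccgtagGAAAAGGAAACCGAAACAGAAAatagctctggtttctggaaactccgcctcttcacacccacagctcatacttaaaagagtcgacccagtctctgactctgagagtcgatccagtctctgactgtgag
Ifit1: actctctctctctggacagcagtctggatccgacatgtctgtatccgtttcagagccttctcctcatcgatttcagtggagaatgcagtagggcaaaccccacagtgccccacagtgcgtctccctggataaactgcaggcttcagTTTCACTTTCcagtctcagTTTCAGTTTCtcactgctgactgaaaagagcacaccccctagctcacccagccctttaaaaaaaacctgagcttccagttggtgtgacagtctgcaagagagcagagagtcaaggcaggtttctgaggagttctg
Igtp: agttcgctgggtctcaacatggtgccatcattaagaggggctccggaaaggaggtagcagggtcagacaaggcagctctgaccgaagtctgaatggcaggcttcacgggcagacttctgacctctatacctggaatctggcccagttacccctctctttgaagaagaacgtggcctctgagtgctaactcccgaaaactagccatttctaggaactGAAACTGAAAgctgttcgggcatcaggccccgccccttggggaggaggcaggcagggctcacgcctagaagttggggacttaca
The motif was chosen after the values were seen. It was present in the promoters of 10 of 23 genes of the interferon list found in the table (43.5%), and in those of 1079 of 27025 genes in all (3.99%). Within the list it was present in 6 of 11 genes that were lower without overlap and in 4 of 12 others. Among the named genes it was present in 2 of 10 lower and 1 of 9 higher ones with a promoter in the table. A match describes these letters and does not show binding.

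Genes of growth factor signalling gave values in both directions. Igf1, insulin-like growth factor 1 (chr10:87858265-87937042), was at 314 and 237 FPKM at day 15 and at 535 and 569.8 FPKM at day 21, a difference of 1.01 (SE 0.37, unadjusted p = 0.0204 in limma). The share of positive cells was between 77.3% and 78% in all 4 captures. Igf1r, its receptor, was at 12.8 and 15.4 FPKM against 55.5 and 103 FPKM (difference 2.35, SE 0.65, unadjusted p = 0.00434 in limma), with 28% and 13.6% positive cells against 27.8% and 36.1%. Of 22 genes of the IGF system and of imprinted growth control 4 were higher (18.2%) and 7 lower (31.8%) without overlap. The shares of all genes were 13.5% and 16.8%. The median of the list was -0.15, but 0.084 where log2 values were averaged over cells. Among the lower ones were Plagl1, an imprinted zinc finger factor, at 58 and 34.3 FPKM against 2.82 and 16.8 FPKM (difference -2.47, SE 0.86), the imprinted noncoding RNA H19, at 99.2 and 119 FPKM against 23.2 and 47.2 FPKM, and Meg3, at 766 and 378 FPKM against 225 and 369 FPKM. Htra1, a secreted protease that cuts IGF binding proteins, was at 1461 and 1017 FPKM against 748 and 679 FPKM (difference -0.77, SE 0.43). Igfbp2, a binding protein, overlapped at 467 and 211 FPKM against 293 and 501 FPKM. Pdgfra, a receptor of platelet-derived growth factor, was at 44.8 and 38.2 FPKM against 63.2 and 62.6 FPKM (difference 0.59, SE 0.49) and Fgfr2, a receptor of fibroblast growth factors, differed by 0.91 (SE 0.55), but in cells of a shared depth these were -0.11 and -0.20. Pdgfrl, a receptor-like protein, overlapped at 349 and 210.1 FPKM against 315 and 598 FPKM. Of 17 genes of these pathways 5 were higher without overlap (29.4%) and 1 lower (5.88%), against 13.5% and 16.8% of all genes. The median of the list was 0.44, but -0.11 in cells of a shared depth. Tgfbr3, a coreceptor for TGF-beta, was at 97.9 and 100.3 FPKM against 145 and 149 FPKM.

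Genes that mark layers of the dermis were mixed. Of 11 upper dermal genes 2 were higher (18.2%) and 3 lower (27.3%) without overlap, against 13.5% and 16.8% of all genes. The upper dermal list had a median of 0.066. Its most abundant member, Crabp1, a retinoic acid-binding protein (chr9:54764748-54773110), was at 966 and 1279 FPKM at day 15 and at 633 and 236 FPKM at day 21. Both day 21 captures were lower, the share of positive cells was between 72.2% and 86.4%, and the difference was -1.52 (SE 0.45, unadjusted p = 0.00631 in limma). Of 19 lower dermal and adventitial genes 7 were higher without overlap (36.8%) and none lower, against 13.5% and 16.8% of all genes. The median of the list was 0.76, but with captures left out in turn this median lay between -0.10 and 1.78. Ly6a, the stem cell antigen Sca-1, was at 798 and 535 FPKM against 825 and 1656 FPKM. Ly6c1 was at 83 and 118 FPKM against 206 and 407 FPKM (difference 1.54, SE 0.61), but -0.07 with depth as a covariate. Cd55, a complement decay factor, was at 10.4 and 1.96 FPKM against 22.7 and 33.7 FPKM (difference 2.30, SE 0.86). Anxa3 was at 4.1 and 0 FPKM against 17.3 and 54.6 FPKM, and Angptl1 at 88.2 and 14.7 FPKM against 139 and 132 FPKM, the latter with a difference of -0.55 with depth as a covariate. Gpx3, a secreted peroxidase, was at 609 and 733 FPKM against 622 and 1170.3 FPKM, and Mgp, the matrix Gla protein, ranged from 0.327 FPKM in day 15 capture 2 to 846 FPKM in day 21 capture 2, with overlap for both genes. Day 21 capture 2 was the highest capture for 11 of these 19 genes, against 26.8% of all genes.

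The same capture stood out in the secreted immune genes. Of 12 complement and acute phase genes 5 were higher without overlap (41.7%) and none lower, against 13.5% and 16.8% of all genes. The median of the list was 1.06, between 0.072 and 1.78 with captures left out in turn. Day 21 capture 2 was the highest for 9 of 12. C1s1, a protease of the first complement component, was at 161 and 133 FPKM against 164 and 315 FPKM, and Serping1, its inhibitor, at 348 and 226 FPKM against 244 and 963 FPKM, which was -0.54 with depth as a covariate. Lbp, a binding protein for bacterial lipopolysaccharide, was listed at 0 in both day 15 captures and was at 14.4 and 16 FPKM at day 21, where 5.56% and 8.33% of cells had 10 FPKM. With depth as a covariate its fitted value had the opposite sign (-3.05), from a slope that rests mostly on the day 12 captures. Of 16 chemokines and cytokines 5 were higher (31.2%) and 1 lower (6.25%), against 13.5% and 16.8% of all genes. The median of the list was 0.80, between 0.038 and 1.19 with captures left out in turn. Ccl7, which attracts monocytes, was at 166 and 231 FPKM against 627 and 473 FPKM (difference 1.47, SE 0.44, unadjusted p = 0.00687 in limma), in 40% and 77.3% against 50% and 72.2% of cells, so that both days held captures of a high and a low share. Il1r1, the interleukin 1 receptor, was at 31.1 and 25.1 FPKM against 60.8 and 76.6 FPKM (difference 1.26, SE 0.58). Ccl2 was at 256 and 137 FPKM against 32.8 and 315 FPKM and overlapped, as did Ccl8, at 233, 221, 93.6 and 389.5 FPKM in order, and Cxcl12, at 23, 19.2, 21.9 and 76 FPKM. Immediate early genes, which respond within minutes to tissue handling, moved with this capture. It was the highest for 20 of 24 of them, with Fos at 606 and 594 FPKM at day 15 and at 623 and 1389.9 FPKM at day 21, and Jun at 111, 107, 51.7 and 430.5 FPKM. The part of tissue handling in the chemokine and complement values was not tested.

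Of 29 cell cycle genes 3 were lower at day 21 without overlap (10.3%), less than the 16.8% of all genes, and none was higher. Their median difference was -0.84, and their summed level overlapped, at 597 and 244 FPKM at day 15 and 507 and 55.3 FPKM at day 21. Cdk1, the mitotic kinase, was at 73 and 33.7 FPKM against 19.5 and 0.231 FPKM and was positive in 16% and 13.6% against 5.56% and 0% of cells. The median of the list was between -1.96 and 0.22 with captures left out in turn, and 0.33 without the cycling cells. Those cells were chosen by Mki67, Top2a and Cdk1, which are themselves cell cycle genes, so that 0.33 is partly set by that choice. With the cycling cells left out, 354 genes were higher and 357 lower at an unadjusted p below 0.05, in place of 308 and 445. Ndufa4l2, a gene of the mural marker list, was at 0.587 and 0 FPKM against 54.9 and 17.6 FPKM, in 27.8% and 11.1% of day 21 cells, and its difference was -1.51 with depth as a covariate. The summed level of the mural list had medians over cells of 4.96, 0, 3.88 and 0.41 FPKM. Cytosolic ribosomal protein genes, 29 in number, gave no gene without overlap and a median of -0.11, but 0.24 where log2 values were averaged over cells, and genes of glycolysis and of protein folding in the endoplasmic reticulum had medians of 0.13 and -0.10.

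Signalling and regulatory genes were measured at lower levels and with wide errors. Of 21 TGF-beta pathway genes 6 were higher (28.6%) and 4 lower (19%) without overlap, against 13.5% and 16.8% of all genes. The median of the list was 0.56. Skil, a repressor of SMAD signalling, was at 26.5 and 29.6 FPKM against 50.8 and 46.3 FPKM (difference 0.77, SE 0.57). Of 15 BMP pathway genes 2 were higher (13.3%) and 5 lower (33.3%), against 13.5% and 16.8% of all genes. The median of the list was -0.30. Bmpr1b, a BMP receptor, was at 9.9 and 4.78 FPKM against 0.787 and 0.204 FPKM (difference -2.44, SE 0.88, unadjusted p = 0.0193 in limma), while Id2, a target of the pathway, was at 61.2 and 69.7 FPKM against 119 and 153 FPKM. Smad5, which carries the BMP signal to the nucleus, was at 17.2 and 14 FPKM against 6.91 and 0.511 FPKM (difference -2.26, SE 0.97). Bmpr1b and Smad5 were thus lower and Id2 was higher, each with an adjusted p above 0.7 in limma. They are single members of the list of 15, and Bmpr1b was low at both days. Whether receptors, effectors and targets of the pathway differed as groups was not tested.

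Of 19 Wnt pathway genes 4 were higher (21.1%) and 2 lower (10.5%), against 13.5% and 16.8% of all genes. The median of the list was 0.29, between -0.24 and 0.44 with captures left out in turn. Sfrp1, a secreted Wnt inhibitor, was at 6.28 and 0.257 FPKM against 18.8 and 9.94 FPKM (difference 2.28, SE 0.99, unadjusted p = 0.0433 in limma). The ligand Wnt5a was at 55.9 and 42.5 FPKM against 83 and 62.2 FPKM, but its difference was -0.03 with depth as a covariate. Pdgfd, a ligand of the platelet-derived family, was at 31.9 and 15.5 FPKM against 65.3 and 55.4 FPKM (difference 1.39, SE 0.93). Of 12 adipogenic genes 3 were higher (25%) and none lower, against 13.5% and 16.8% of all genes, with a median of 0.79. Among the higher ones was Ebf1, an early adipogenic factor, at 43.1 and 25.1 FPKM against 81.7 and 65.9 FPKM (difference 1.13, SE 0.57). Of 14 retinoid genes 4 were higher (28.6%) and 2 lower (14.3%), against 13.5% and 16.8% of all genes. Their median was -0.01.

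The factors that mark mesenchymal identity were close to level. Of 25 tested, 1 was higher (4%) and 3 were lower (12%) without overlap, less than the 13.5% and 16.8% of all genes. The median of the list was -0.03. Prrx1, a homeobox factor of fibroblasts, was at 51.3 and 65 FPKM against 47.9 and 61.1 FPKM (difference -0.09, SE 0.55), and Tcf4 was at 286 and 208 FPKM against 413 and 199.8 FPKM. Of 8 hyaluronan genes 1 was lower (12.5%) and none higher, against 16.8% and 13.5% of all genes. Vcan, the large proteoglycan versican, overlapped at 141 and 143 FPKM against 187 and 71.5 FPKM. Of 15 nuclear noncoding RNAs 3 were higher (20%) and 5 lower (33.3%), against 13.5% and 16.8% of all genes. Malat1 was at 10961 and 14017 FPKM against 13546 and 11519 FPKM. Genes of cholesterol and fatty acid synthesis (20 tested) and of oxidative phosphorylation (24 tested) both had medians of -0.08. Of 11 collagen VI, VIII and FACIT genes 2 were higher (18.2%) and 3 lower (27.3%), against 13.5% and 16.8% of all genes. Their median was 0.05.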

How the data were processed

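The deposited values are FPKM per gene and cell, which the authors computed with RSEM after alignment with Bowtie 1.0.0, on mm10 (GRCm38) and GENCODE mouse release 13. The files hold no counts, so limma stood in for a count test, as planned for that case. Depth was estimated from value steps on 9426 single-transcript genes of at least 1000 bases, with fragments of 300 bases assumed, and in 100 simulated cells the estimate was 0.974 to 1.03 times the truth (lowest and highest 5%). The limit of 10 FPKM for a positive cell is about 3.51 fragments per kilobase in the shallowest day 15 cell. GENCODE release 21 named 50376 of 50600 gene identifiers.

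FPKM were averaged over the matrix cells of a capture and taken as log2(mean + 1), and genes averaging 1 FPKM or more over the 4 captures were tested with limma 3.58.1 (R 4.3.3) with a variance trend. All 7 captures of the series entered the fit, so that the 3 day 12 captures share the estimate of spread. Tests are two-sided, with Benjamini-Hochberg adjustment over all genes and a threshold of 0.05, and were tested on simulated data. Intervals of shares are Clopper-Pearson at 95% and cover counting error only. Sequence sharing is the number of 31-base words of a gene's transcripts that occur in another gene.

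Named genes were the 15 per direction with the smallest p among those without overlap that reached 10 FPKM (none passed the threshold), the 4 most abundant members of the lists described, Tagln, Acta2, and the selection and marker genes. Others were chosen after their values were seen. Of the 15 higher genes 1 is not reported here. The cells, lists and tests were chosen with earlier results of these data known. Alternatives were the pseudocount, filters, averaging, scaling, cell limits, depth, a replicate block and each capture left out. The study's own minimum of fragments, protein-coding genes only, and log2 values averaged over the cells of only the 4 captures were added after seeing the data.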

Additional observations from a re-analysis of the deposited data

How the results depend on the processing

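Groups of 2 captures and an unequal depth limit these results. Genes past the adjusted threshold numbered 0 as reported and in 26 of the 29 alternatives, but 189 without day 15 capture 2 and 74 without day 21 capture 2, a range of 0 to 189 over the captures left out. Among the first 30 genes named, 0 to 2 passed in these fits (Gm2564 and Gm6644 without day 15 capture 2, Gm2564 and Gm8838 without day 21 capture 2). The mean of log2 values over cells with only the 4 captures, chosen after seeing the data, gave 7. With the replicate block 0 genes passed and 682 had an unadjusted p below 0.05. Deviations from the day mean had correlations of -0.017 to 0.023 between captures of the same number on different days. Between captures of different numbers they were -0.035 to 0.035. With 2 captures in a day the deviations mirror each other. These correlations cannot show whether captures of the same number share more than a number.

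At an unadjusted p below 0.05, the numbers of higher and lower genes were 308 and 445 as reported, 366 and 203 with the mean of log2 values, 381 and 388 with captures centred, 189 and 797 in cells of a shared depth (median difference of all genes -0.37) and 167 and 192 with depth as a covariate. Weighting by cells gave 1173 genes in all.

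Of 131 genes, 113 had a difference under each of 29 alternatives, and 80 of these kept their sign. The other 18 lacked a value under some, and 16 of them kept their sign where they had one. Some alternatives cannot change a difference, only its error or the set of genes. Among these are each day 12 capture left out, no variance trend, only the 4 captures, and the replicate block. Among genes whose difference exceeded its SE, the sign turned with depth as a covariate to give -1.39 for Prelp, -1.43 for Mmp3, 0.31 for Adamts4, -0.066 for Ly6c1, -0.55 for Angptl1, -0.54 for Serping1, -3.05 for Lbp, 0.27 for Ifitm3, -0.092 for Pdgfrl, -1.51 for Ndufa4l2 and -0.03 for Wnt5a. Among the others, Ccl2 turned from -0.87 to 4.18, Ccl8 from -0.25 to 3.46 and Pcolce from 0.26 to -0.89 under this covariate. In cells of a shared depth the sign of differences that exceeded their SE turned to give -0.58 for 1500015O10Rik, -1.63 for Mmp3, -0.068 for Ifi27, -0.11 for Pdgfra and -0.20 for Fgfr2. With each capture left out, Mmp3 ranged from -0.074 (without day 21 capture 2) to 1.77, Serping1 from -0.20 (without day 21 capture 2) to 1.78, and Ifitm3 from -1.17 to 0.13 (without day 21 capture 1). The slope of the depth covariate rests mostly on the day 12 captures, and the cause of these changes was not tested. The medians of the lists of other collagens, basement membrane, upper dermal, retinoid, mesenchymal, lipid synthesis, glycolysis and oxidative phosphorylation genes changed sign between scalings or cell sets, and that of nuclear noncoding RNAs in cells of a shared depth.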
